A study of Mus musculus with 27 samples.

Results

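The heat shock proteins and DnaJ co-chaperones of mouse tibialis anterior muscle were followed for up to 21 days after volumetric muscle loss (VML). Members were the protein-coding genes whose names mark them as HSP90, HSP70, HSP110, HSP60, HSP10, small heat shock protein or DnaJ genes, with Cryab (alpha-B-crystallin) added by name. They were also required to reach 0.5 FPKM (fragments of a gene scaled by its length and by library size) in 5 or more of the 27 samples. Of 73 genes with such a name, 66 passed and 7 did not, out of 54532 genes in the table and 14630 genes that passed the same threshold. The 66 comprised 28 heat shock proteins and 38 DnaJ genes (4 of type A, 10 of type B and 24 of type C). Expression level over all groups therefore chose the members. Over all samples, 60 members were above the threshold in every sample and 6 in only some. Dnajb3 and Hspb9 passed it in no control sample, so both could enter the set only through injured muscle, and they are described by level without a test. Just inside the threshold was Hspb9, with a fifth-highest value of 0.522 FPKM and at most 20 reads. Just outside it were Dnajb13, with a highest value of 0.498 FPKM, and Dnajb7, which exceeded 0.5 FPKM in 1 sample (0.988).

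All groups came from male C57BL/6 mice, 8 weeks old. The model removes 40% of the tibialis anterior, a fast muscle at the front of the lower leg, and leaves the remainder in place. The study's methods describe the excision as bilateral and the series record as unilateral, and the labels did not settle it. Bulk polyA RNA was sequenced from 5 samples labelled Control, which were uninjured, and from 5, 6, 6 and 5 samples taken 3, 7, 14 and 21 days after VML. The labels do not say that samples of a group came from separate mice, so the p-values measure the spread between samples only.

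Heat shock proteins are molecular chaperones: they bind unfolded or partly folded proteins and hold, refold or release them. HSP70 works in an ATP-driven cycle in which a DnaJ protein delivers the client and starts hydrolysis, and an exchange factor of the HSP110 type frees the nucleotide. HSP90 acts later on clients such as kinases and, in muscle, on the folding of myosin, while small heat shock proteins hold unfolded proteins without ATP and are abundant around the Z-disc of muscle fibres. Separate HSP70, HSP90 and chaperonin genes serve the endoplasmic reticulum (ER) and the mitochondrion. Heat shock factor 1 acts on cytosolic genes through heat shock elements, and the unfolded protein response acts on ER genes through ER stress response elements.

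Promoter stretches of members that hold a match to these elements are shown, as a description of the sequence only. RefSeq promoter windows (GRCm38.p6, 250 bases before each start) were found for 53 of the 66 members, and 32851 windows were searched on both strands. Members without a window, among them Hsp90aa1, Hspa8 and Cryab, were not searched. The ER stress response element (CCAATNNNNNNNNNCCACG) was present in 37 windows (0.113%), among them those of 3 members: Hspa5, Hsp90b1 and Dnajc3. In the lines below, capitals mark each match, written 5′ to 3′ along the gene. The Hspa5 stretch lies within the bounds the table gives for the gene, in an annotated exon. The stretches are at chr2:34772020-34772048 (+ strand) for Hspa5, chr10:86705510-86705664 (− strand) for Hsp90b1 and chr14:118937782-118937931 (+ strand) for Dnajc3.
Hspa5: cttcaCCAATCGGAGGCCTCCACGacggg
Hsp90b1: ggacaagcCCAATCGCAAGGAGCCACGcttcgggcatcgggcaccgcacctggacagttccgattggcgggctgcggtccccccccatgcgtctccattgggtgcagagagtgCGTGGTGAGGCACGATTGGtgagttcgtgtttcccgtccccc
Dnajc3: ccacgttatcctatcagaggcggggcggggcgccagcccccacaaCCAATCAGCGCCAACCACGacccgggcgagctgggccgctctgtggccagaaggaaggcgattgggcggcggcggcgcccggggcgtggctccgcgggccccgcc

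The match lay 47 to 65 bases before the RefSeq start in Hspa5 and 87 to 105 bases before it in Dnajc3. Hsp90b1 held a pair of matches, at 194 to 212 and, on the other strand, at 89 to 107 bases before its start. The related ER stress response element II was found in 10 windows (0.0304%) and in 0 of the 69 windows of the 53 members. The heat shock element of 3 units (GAANNTTCNNGAA) was present in 153 windows (0.466%), including those of 3 members: Hspd1 and Hspe1, which share one site because they are transcribed in opposite directions from a common promoter, and Dnajb6. The shared site is shown from the Hspe1 strand at chr1:55088055-55088080 (+ strand), with capitals over its overlapping matches, which lie 72 to 89 bases before the Hspe1 start and in an annotated exon within the bounds of Hspd1.
Hspe1: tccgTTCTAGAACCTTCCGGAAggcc

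Samples held 14376395 to 24436763 reads over genes (median 17398586). Mature fibre genes such as Ckm (creatine kinase) dominated, with a summed level of 57189 to 73488 FPKM for 6 such genes in control, as skeletal muscle does. That sum was 17643 to 39910 FPKM at day 3, when all 5 macrophage, 3 of 3 neutrophil and 4 of 5 fibroblast marker genes were higher than control. Macrophage markers summed to 2.81 to 3.65 FPKM in control and 48.2 to 322 FPKM at day 3. The regenerating fibre genes Myh3, Myh8, Myog and Myod1 were higher at days 3, 7 and 14 (4 of 4 each; median log2 differences of 4.23, 2.78 and 2.95) and 2 of 4 were at day 21. Their summed level was 16.3 to 25.4 FPKM in control and 145 to 370 FPKM at day 3. In bulk RNA, fewer cells of a type and less RNA per cell cannot be told apart, and the part of these shifts in the results below was not tested. By distance over all tested genes, 9 of the 27 samples lay nearer the mean of another group than that of their own. Each sample was left out of its own group's mean. Day 3 replicate 5 lay nearest day 7 and day 7 replicate 5 nearest day 3, so counts are also given with both left out. Macrophage markers in those samples summed to the lowest of day 3 (48.2 FPKM) and the highest of day 7 (308 FPKM).

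The scale of the table also bears on direction. The divisor behind the deposited FPKM averaged 0.782 times the read total in control and 1.25, 1.18, 1.04 and 0.897 times at days 3, 7, 14 and 21. Rescaling each sample so that its genes add up to the same total (TPM) moved the median log2 difference from control of all tested genes by 0.49, 0.45, 0.27 and 0.10 at those days. Median-ratio scaling, which aligns samples by the middle of their genes, moved it by 0.003, 0.006, 0.006 and 0.003. Differences below are on the log2(FPKM + 1) scale, which understates changes of low genes, unless TPM is named.

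More members were lower than higher after injury in FPKM, and none was called at day 21. In TPM more were higher than lower at days 3, 7 and 14, as were more of all tested genes. At day 3, 10 of 66 members were higher than control, where 23.4% of all tested genes were, and 16 were lower, where 19.8% were, or 43.2% in either direction. At day 7, 4 were higher (15% of all genes) and 17 lower (14.4%), with 29.4% of all genes called in either direction. At day 14, 5 were higher (9.02%) and 10 lower (11.3%), with 20.3% of all genes called in either direction. At day 21, 0 were higher (1.74%) and 0 lower (1.69%). The higher counts include Dnajb3; among the 64 members over the threshold in at least 1 control sample they were 9, 3 and 4 at days 3, 7 and 14. The medians over the 66 members were -0.01, -0.08, -0.08 and -0.13 at the 4 days, against 0.01, 0.03, 0.02 and 0.01 over all tested genes.

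After TPM scaling the counts became 37 higher and 0 lower at day 3 (46.9% of all genes higher), 18 and 0 at day 7 (43.1%), and 8 and 0 at day 14 (11.5%). All members called higher in FPKM were also called higher in TPM (10 of 10, 4 of 4 and 5 of 5). Of those called lower, 8 of 16 at day 3 and 10 of 17 at day 7 stayed below 0 in TPM, as did 10 of 10 at day 14. Each of them was below the median of all genes on either scale. With day 3 and day 7 each lacking replicate 5, 14 members were higher and 15 lower at day 3 (23.8% and 19.4% of all genes), 3 and 14 at day 7 (12.4% and 10.9%), and 6 and 12 at day 14 (11.6% and 12.4%). Dnajb3, which is given no test, is included in each of these counts of higher members, in TPM and without replicate 5. Over the 4 days, 35 members were called at no day, 11 only higher (Dnajb3 among them), 20 only lower and 0 in both directions. The matching shares of all tested genes over the 4 days were not computed, so these counts do not set the members apart.

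**Figure D1:**
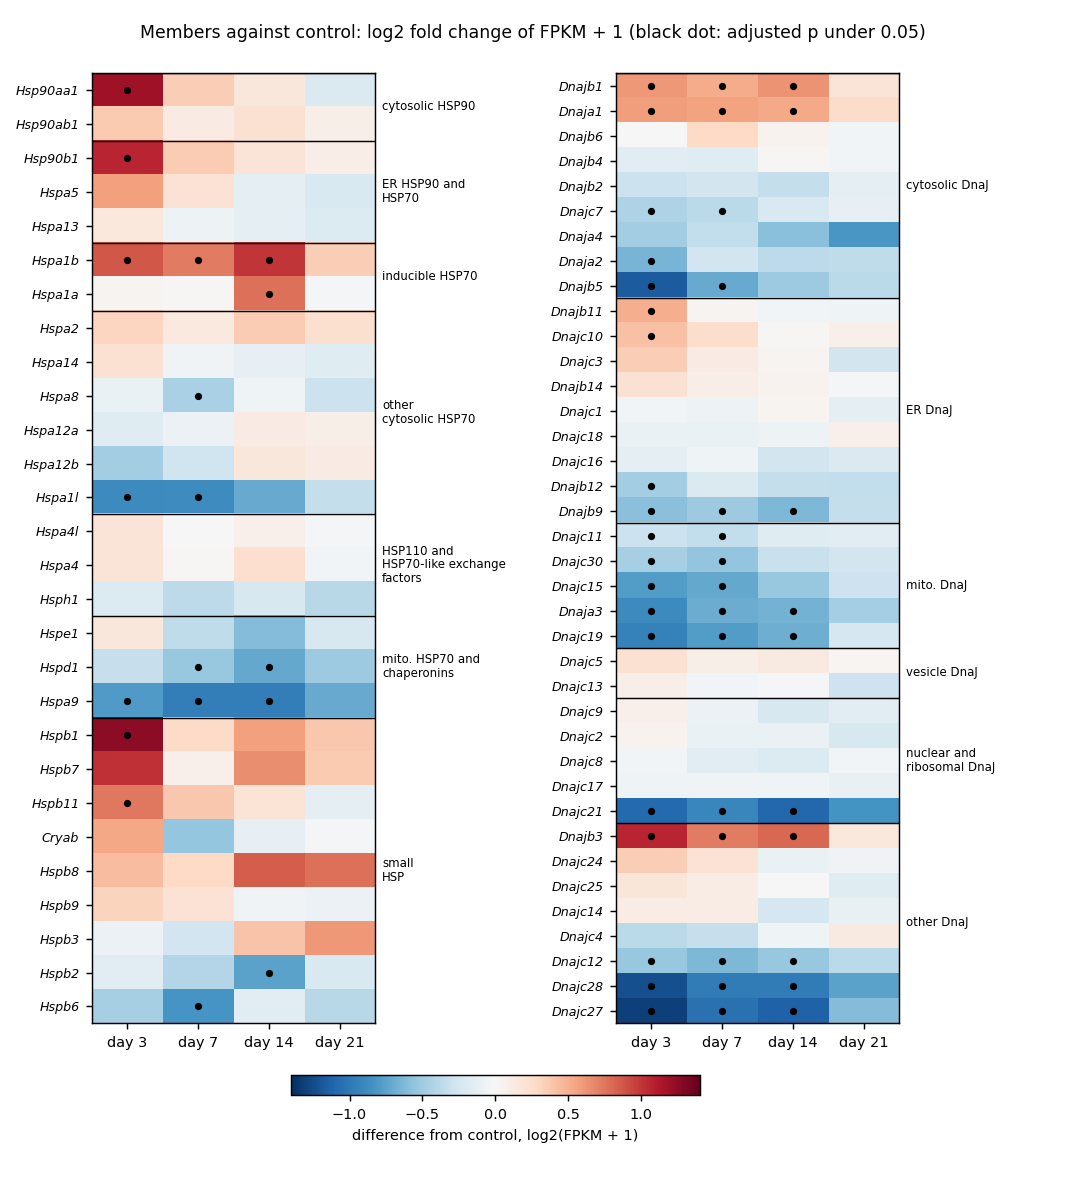
Log2 fold change of FPKM + 1 against control for all 66 members at each day (columns), grouped by role, with red above and blue below control. Black dots mark an adjusted p under 0.05: day 3 holds 10 red and 16 blue dots, and day 21 holds none.

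Cytosolic HSP90 is encoded by the inducible Hsp90aa1 and the constitutive Hsp90ab1. Hsp90aa1 (ENSMUSG00000021270, 12:110690605-110702728, − strand) was 12.5, 11.8, 11.9, 13.8 and 7.92 FPKM in the control samples. At day 3 it was 31.9, 30.001, 33.0, 38.7 and 12.2 FPKM. Replicates 1 to 4 of day 3 lay far above every control, whereas replicate 5 lay within the control range. The means were 11.6 ± 2.19 FPKM (SD, n = 5) and 29.2 ± 10.03 FPKM (n = 5), a log2 difference of 1.19 (SE 0.28, adjusted p = 0.00142). Without replicate 5 of days 3 and 7 the difference was 1.47 (adjusted p = 1.91e-06).

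Day 7 values of Hsp90aa1 ran from 9.03 to 33.7 FPKM with a median of 14.3, the highest being replicate 5. At day 14 the range was 10.5 to 15.7 FPKM and at day 21 6.77 to 13.8 FPKM, both overlapping control. Against day 3, day 21 was lower by a log2 difference of -1.39 (SE 0.28, adjusted p = 0.000865). Hsp90ab1 was the more abundant HSP90 in every group, at 344 ± 26.4 FPKM in control. Its day 3 values were 489, 502, 500, 535 and 258 FPKM against 318 to 383 FPKM in control. Replicate 5 was the only day 3 sample below the controls, and the log2 difference of 0.36 did not pass (adjusted p = 0.203). It did in TPM (1.19, adjusted p = 0.00773) and without replicate 5 of days 3 and 7 (0.56, adjusted p = 0.0385).

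Among the ER chaperones, Hsp90b1 was higher at day 3 as well. Hsp90b1 (GRP94, ENSMUSG00000020048, 10:86690209-86705509, − strand), the ER form of HSP90 that folds secreted and membrane proteins, was 17.7, 14.9, 17.8, 17.5 and 13.05 FPKM in control. It was 35.7, 34.8, 37.5, 42.2 and 25.9 FPKM at day 3. All day 3 samples were above all controls. The log2 difference was 1.07 (SE 0.20, adjusted p = 0.000172). At day 7 its values ran from 15.8 to 49.1 FPKM with a median of 17.9, and all samples but replicate 5 were at or below 20.1 FPKM. Day 21 was lower than day 3 by a log2 difference of -0.97 (adjusted p = 0.00105).

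Hspa5 (BiP), the HSP70 of the ER, was 35.1, 39.9, 26.1, 40.8 and 32.0 FPKM in control and 54.8, 45.1, 58.7, 77.4 and 32.6 FPKM at day 3. As for Hsp90aa1, only replicate 5 of day 3 fell within the control range. The difference of 0.57 (SE 0.25) missed the threshold over all samples (adjusted p = 0.0649). It passed without day 3 replicate 5 (0.74, adjusted p = 0.0205), without day 7 replicate 5 (adjusted p = 0.0271) and in TPM (1.38, adjusted p = 0.0059). The fall from day 3 to day 21 was -0.79 (adjusted p = 0.021), lost without day 3 replicate 3 (0.0545), day 3 replicate 4 (0.0833) or day 21 replicate 5 (0.0711). Hspa13, a microsomal HSP70 relative, stayed between group means of 1.03 and 1.59 FPKM and was called at no day.

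**Figure D2:**
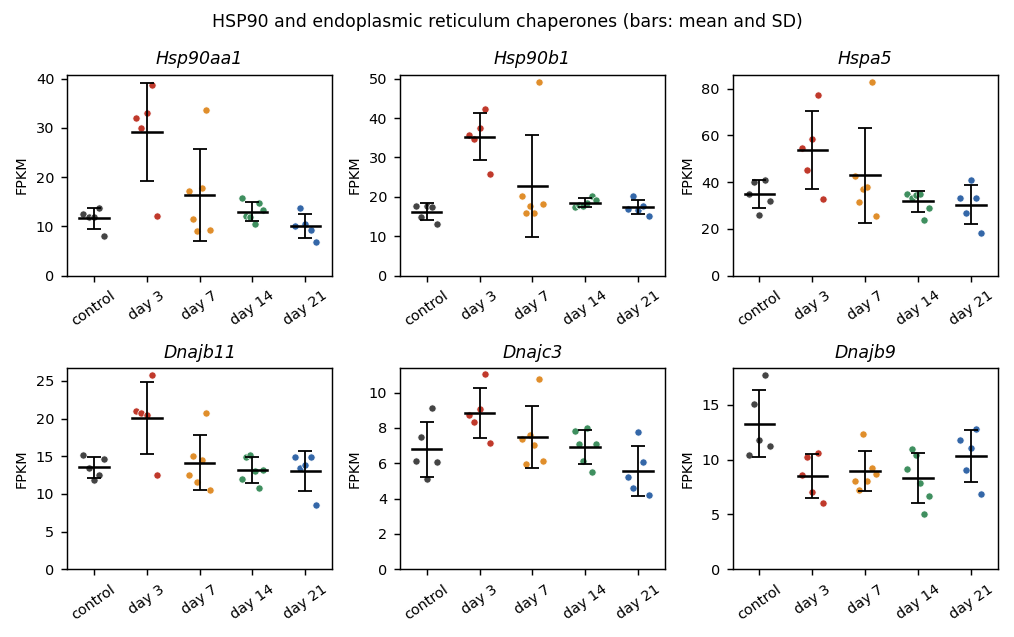
FPKM of Hsp90aa1, Hsp90b1, Hspa5, Dnajb11, Dnajc3 and Dnajb9 in every sample (points) of control and days 3, 7, 14 and 21, with group mean and SD (bars). Replicate 5 is the lowest day 3 sample in all 6 panels and the highest day 7 sample in all but Dnajb9, for example 25.9 and 49.1 FPKM for Hsp90b1.

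Among 9 DnaJ genes of the ER, 2 were higher and 2 lower at day 3, where 23.4% and 19.8% of all genes were. In TPM 5 of the 9 were higher (46.9% of all genes), and both lower genes, Dnajb9 and Dnajb12, were above control (0.17 and 0.28). Dnajb11 (ERdj3), which delivers clients to BiP, was 11.8 to 15.2 FPKM in control and 21.0, 20.8, 20.4, 25.8 and 12.4 FPKM at day 3. Replicate 5 of day 3 again lay within the control range. The difference was 0.51 (SE 0.18, adjusted p = 0.021), lost without control replicate 3 (0.0516) or day 3 replicate 4 (0.0771). Dnajc10 (ERdj5), a disulphide reductase, went from 5.09 ± 0.797 to 7.07 ± 0.747 FPKM, a difference of 0.41 (SE 0.12, adjusted p = 0.00947). Dnajc3 (P58IPK), an inhibitor of the eIF2alpha kinase PERK and a BiP co-chaperone, averaged 6.80 ± 1.55 FPKM in control and 8.86 ± 1.42 FPKM at day 3 (0.35, adjusted p = 0.0822). It passed without control replicate 4 (0.031) or day 3 replicate 5 (0.0495).

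Dnajb9 (ERdj4), which limits IRE1 signalling, was lower than control in FPKM and above it in TPM at days 3 and 7 (0.17 and 0.16). It was 10.4, 15.1, 11.8, 17.7 and 11.3 FPKM in control and 8.59, 10.2, 7.05, 10.6 and 6.05 FPKM at day 3. The ranges overlapped, with day 3 replicate 4 above the lowest control. It was lower at days 3, 7 and 14 by log2 differences of -0.58, -0.51 and -0.62 (adjusted p = 0.0166, 0.0394 and 0.0194). The day 3 call was lost without control replicate 4 (0.0591) or day 3 replicate 5 (0.0546). The day 7 call was lost without any of 6 samples (0.0562 to 0.12), and the day 14 call without control replicate 2 (0.051), control replicate 4 (0.0662) or day 14 replicate 5 (0.0618). Dnajb12, a tail-anchored ER co-chaperone, was lower at day 3 only (-0.49, adjusted p = 0.0128).

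Genes of ER folding outside the families were examined beside them. Of 18 such genes, 13 were higher and 1 lower at day 3 (23.4% and 19.8% of all genes). At days 7, 14 and 21, 6, 3 and 0 were higher (15%, 9.02% and 1.74% of all genes) and none was lower. Their median log2 difference at day 3 was 0.93, against 0.01 for all tested genes. The collagen chaperone Serpinh1 (HSP47) had the greatest difference (2.33, adjusted p = 2.52e-07), followed by the BiP regulator Sdf2l1 (2.002, adjusted p = 0.000113) and the disulphide isomerases Pdia3 (1.96) and Pdia4 (1.68). The 1 lower gene, Herpud1, a component of ER-associated degradation, fell by 0.77 on the log2 scale in FPKM but was above control in TPM. Fibroblast marker genes, which include the collagens Col1a1 and Col3a1, summed to 44.7 to 115 FPKM in control and 390 to 799 FPKM at day 3, and their part in these increases was not tested.

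Small heat shock proteins held most of the transcript output of the set. They made up 63.1 ± 3.81% of the summed FPKM of the 66 members in control (SD, n = 5), and 70.3 ± 5.42%, 62.2 ± 7.51%, 68.1 ± 5.64% and 67.6 ± 5.21% at days 3, 7, 14 and 21. Of the 9 members, 2 were higher at day 3 (23.4% of all genes) and 1 was lower at each of days 7 and 14 (14.4% and 11.3%), with none called on day 21. In TPM 7, 2 and 3 were higher at days 3, 7 and 14, against 46.9%, 43.1% and 11.5% of all genes, and 0 were lower.

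Hspb1 (HSP25, the mouse counterpart of human HSP27; ENSMUSG00000004951, 5:135887919-135889563, + strand), which binds actin and filamin, was 321, 234, 243, 235 and 243 FPKM in control. At day 3 it was 537, 1230, 485, 671 and 378 FPKM. Every day 3 sample exceeded every control, and replicate 2 was the highest. The log2 difference was 1.25 (SE 0.26, adjusted p = 0.0004). Day 7 ran from 220 to 449 FPKM, overlapping control. Day 21 (227 to 428 FPKM) was lower than day 3 by -0.88 (adjusted p = 0.0147), lost without day 3 replicate 2 (0.055). Hspb11, which despite its name is a subunit of the intraflagellar transport machinery, rose from 1.23 ± 0.229 to 2.73 ± 0.454 FPKM at day 3 (0.74, adjusted p = 0.00278).

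The sarcomeric members moved less or with more scatter. Cryab, a desmin and titin chaperone and the most abundant member, was 1384, 751, 1022, 926 and 683 FPKM in control. It was 1342, 2822, 1062, 1414 and 787 FPKM at day 3 and 453 to 1260 FPKM at day 7 (median 555). The groups overlapped, and differences of 0.55 at day 3 and -0.54 at day 7 did not pass (adjusted p = 0.216 and 0.225). In TPM the day 3 value was 1.37 (adjusted p = 0.000981). Hspb7, a filamin C partner, was 141 to 410 FPKM in control and 366 to 695 FPKM at day 3 (1.02, SE 0.51, adjusted p = 0.106).

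Hspb6 (HSP20) was 655 to 1064 FPKM in control (median 797). At day 7 it ran from 338 to 940 FPKM with a median of 426. All day 7 samples but replicate 2 were below the controls. The difference of -0.83 (SE 0.30, adjusted p = 0.0377) was lost without any of 7 samples (0.0529 to 0.0941), without replicate 5 of days 3 and 7 (-0.75, adjusted p = 0.0775) and in TPM (-0.10). Hspb2, which partners Hspb3, was 60.1 to 88.0 FPKM in control and 25.5 to 58.7 FPKM at day 14. All day 14 samples lay below all controls (-0.75, SE 0.24, adjusted p = 0.0281). The call was lost without control replicate 1, control replicate 5, day 14 replicate 1 or day 14 replicate 5 (0.0725 to 0.0772) and in TPM (-0.28). Hspb2 shares 30.2% of its exon bases with Cryab on the opposite strand, and the libraries were not stranded, so reads of the pair there cannot be told apart.

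Hspb8, which acts with Bag3 in clearing damaged filamin, was 231 to 292 FPKM in control and 319 to 661 FPKM at day 14. The day 14 samples were all above the controls, and the difference of 0.84 (SE 0.32) missed the threshold (adjusted p = 0.0647), passing without replicate 5 of days 3 and 7 (adjusted p = 0.043) and in TPM (1.32, adjusted p = 0.0405). Hspb3 was 37.7 to 57.8 FPKM in control and 60.6 to 89.6 FPKM at day 21. It was the only member whose day 21 samples all exceeded control, at a background of 5.26%, with a difference of 0.61 that did not pass (adjusted p = 0.179). Hspb9, a testis-type member, reached 0.5 FPKM in 3 day 3 and 2 day 7 samples.

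**Figure D3:**
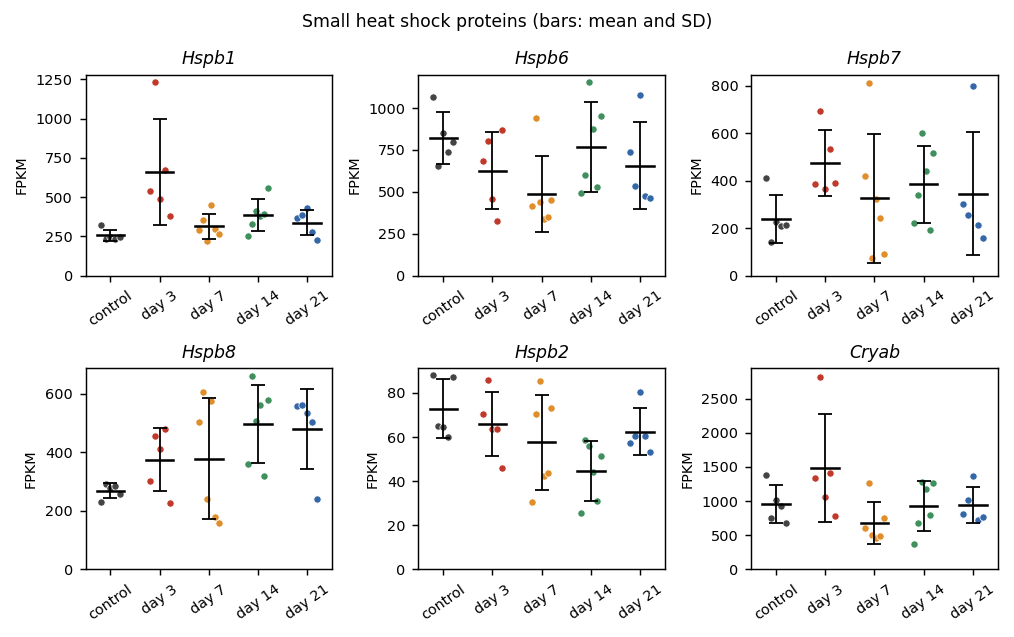
FPKM of Hspb1, Hspb6, Hspb7, Hspb8, Hspb2 and Cryab in every sample (points) by group, with group mean and SD (bars). Hspb1 at day 3 (378 to 1230 FPKM) lies above all controls (234 to 321 FPKM), while Cryab overlaps control at every day.

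The stress-inducible HSP70 genes, the classical targets of heat shock factor 1, had low FPKM values. Hspa1b (ENSMUSG00000090877, 17:34956436-34959238, − strand) was 0.509, 0.332, 0.243, 0.724 and 0.756 FPKM in control and 1.88, 1.74, 1.62, 1.93 and 1.54 FPKM at day 3. Day 3 samples lay in a narrow band above all controls. At day 7 its values ran from 0.85 to 2.06 FPKM with a median of 1.76, also all above control. The differences were 0.87 at day 3, 0.73 at day 7 and 0.997 at day 14 (adjusted p = 0.00406, 0.0167 and 0.00364), and 0.34 at day 21 (adjusted p = 0.436). At day 14 replicate 3 (0.438 FPKM) lay within the control range. With voom weights on the recovered reads, at most 264 in a sample, the day 7 difference did not pass (adjusted p = 0.0516).

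Hspa1a, its near-identical copy, gave another course. It was 0.235 to 1.42 FPKM in control and 0.588 to 1.36 FPKM at day 3, and its differences at days 3 and 7 (0.04 and 0.02) did not pass (adjusted p = 0.923 and 0.965). At day 14 replicates 1, 5 and 6 held 3.81, 4.44 and 4.23 FPKM, and replicates 2, 3 and 4 held 0.959, 0.863 and 1.79 FPKM. The day 14 difference of 0.77 (SE 0.25, adjusted p = 0.0303) rested on few samples. It was lost without day 14 replicate 1 (0.0723), 5 (0.0918) or 6 (0.0688), or control replicate 1 (0.0565) or 2 (0.106). It was also lost without a filter on low values, with voom weights and with only those 2 groups in the fit. Replicates 1, 5 and 6 of day 14 were also the highest of that day for the immediate early gene Fos (19.1, 26.9 and 16.7 FPKM, against 2.07, 1.63 and 3.86 FPKM) and for Atf3 (15.6, 19.7 and 12.1 FPKM). The list held 7 immediate early genes, of which 2 were higher at day 14 (9.02% of all genes), and only Fos and Atf3 are given by replicate here. Whether these levels arose together was not tested. Reads of Hspa1a and Hspa1b may be assigned to either copy or left uncounted, and how they were handled is not stated in the sources used here. Their separate values and their low levels are therefore uncertain.

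Dnajb1 (HSP40), the inducible partner of HSP70, and Dnaja1, its farnesylated relative, were higher at each of days 3, 7 and 14. Dnajb1 was 2.37, 2.67, 2.26, 1.37 and 3.07 FPKM in control and 3.83, 3.99, 4.06, 4.42 and 3.75 FPKM at day 3. The ranges did not overlap at day 3 but did at days 7 (2.75 to 4.95 FPKM) and 14 (2.63 to 6.70 FPKM). At day 14 the values above 5 FPKM were those of replicates 1, 5 and 6. Differences were 0.60, 0.52 and 0.63 (adjusted p = 0.0113, 0.032 and 0.0159). The day 7 call was lost without any of 5 samples (0.0518 to 0.11) and without replicate 5 of days 3 and 7 (0.45, adjusted p = 0.0848), and the day 14 call without control replicate 4 (0.0595) or day 14 replicate 5 (0.0525). Dnaja1 was 3.70 to 4.39 FPKM in control and 5.51 to 7.57 FPKM at day 3. Its samples were all above control at days 3, 7 and 14, with differences of 0.59, 0.56 and 0.53 (adjusted p = 0.000339, 0.00106 and 0.00281). At day 21 the differences of Dnajb1 and Dnaja1 were 0.18 and 0.26 and did not pass (adjusted p = 0.629 and 0.223).

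**Figure D4:**
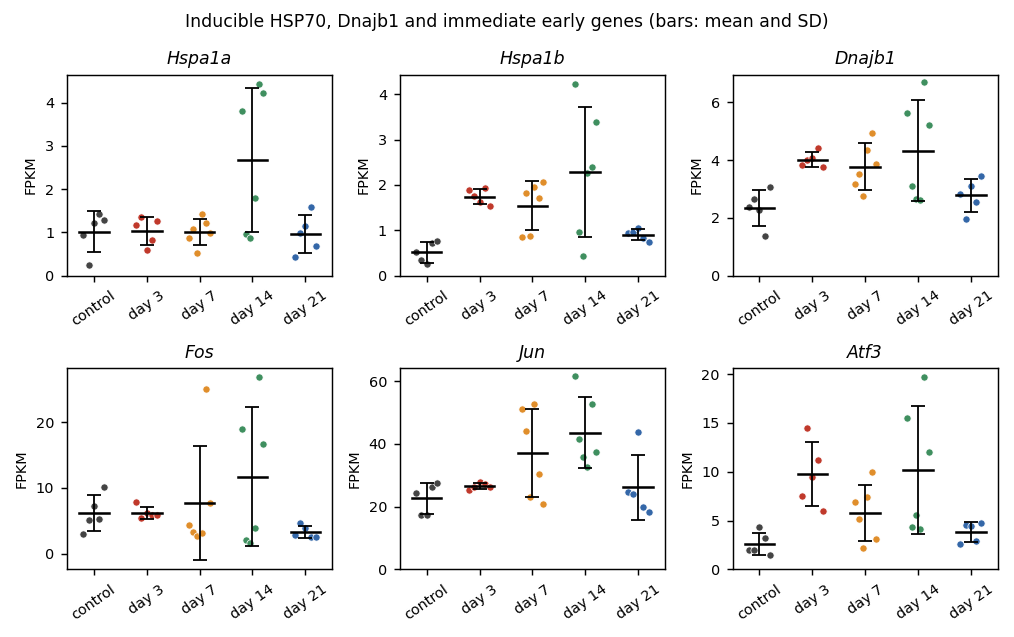
FPKM of Hspa1a, Hspa1b and Dnajb1 (top) and of the immediate early genes Fos, Jun and Atf3 (bottom) in every sample (points) by group, with group mean and SD (bars). At day 14 the 3 highest samples of Hspa1a (3.81 to 4.44 FPKM) are the 3 highest of Fos (16.7 to 26.9 FPKM).

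The constitutive cytosolic HSP70, Hspa8 (HSC70), was 354, 366, 310, 355 and 297 FPKM in control. At day 7 it ran from 203 to 293 FPKM with a median of 244. All day 7 samples lay below all controls, the highest by a small margin. The difference was -0.46 (SE 0.15, adjusted p = 0.0227), lost without control replicate 1 (0.0503), 2 (0.0552) or 4 (0.0504), and above control in TPM (0.27, adjusted p = 0.298). At days 3, 14 and 21 its differences were -0.10, -0.06 and -0.31 (adjusted p = 0.645, 0.802 and 0.272).

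Hspa1l, the third HSP70 gene of the chromosome 17 cluster, averaged 7.54 ± 3.44 FPKM in control, 3.58 ± 1.83 at day 3 and 3.78 ± 2.36 at day 7. Its control samples alone ran from 3.25 to 11.96 FPKM. The calls at day 3 (-0.89, adjusted p = 0.0405) and day 7 (-0.88, adjusted p = 0.0486) were lost without any of 7 and 17 samples (0.0521 to 0.135 and 0.0503 to 0.14) and in TPM (-0.22 and -0.31). Moreover 71.9% of its exon bases overlap an antisense gene. Hspa2, Hspa12a, Hspa12b and Hspa14, and the exchange factors Hsph1 (HSP110), Hspa4 and Hspa4l, were called at no day. Hspa4 was 15.3 ± 1.03 FPKM in control and 17.5 ± 1.75 FPKM at day 3 (0.18, SE 0.18).

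Of the 3 mitochondrial HSP70 and chaperonin genes, 1, 2 and 2 were lower in FPKM at days 3, 7 and 14, where 19.8%, 14.4% and 11.3% of all genes were. In TPM none of these calls passed, and 1 of those genes was above control at day 3 and 1 at day 7. Hspa9 (mortalin), the matrix HSP70 that pulls imported proteins through the inner membrane, was 137, 111, 142, 116 and 127 FPKM in control. It was 82.1, 95.8, 69.9, 66.7 and 53.4 FPKM at day 3, and 84.2, 69.5, 98.9, 94.9 and 49.3 FPKM at day 21. Control samples lay above all samples of day 3, day 7 (47.9 to 82.5 FPKM), day 14 (36.4 to 83.7 FPKM) and day 21.

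The log2 differences of Hspa9 were -0.80, -0.97, -0.97 and -0.70 (SE 0.20 to 0.21; adjusted p = 0.00374, 0.00139, 0.00238 and 0.0623). The day 21 value was the smallest adjusted p of any member at that day. In TPM the differences at days 3, 7 and 14 were 0.02, -0.25 and -0.50 and did not pass, so the direction at day 3 depended on the scale.

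Hspd1 (HSP60) and Hspe1 (HSP10) form the matrix folding chamber and share the promoter printed above. Hspd1 was 69.9 to 81.6 FPKM in control, 40.5 to 73.2 FPKM at day 7 (median 48.5) and 30.4 to 53.7 FPKM at day 14 (median 49.2). The day 14 samples all lay below control, while day 7 replicate 3 lay within its range. Differences were -0.53 at day 7 (adjusted p = 0.0393) and -0.72 at day 14 (adjusted p = 0.0109). The day 7 call was lost without any of 9 samples (0.0531 to 0.0909), and that difference was 0.18 in TPM. Hspe1 was 80.1 ± 11.7 FPKM in control, 92.9 ± 28.4 at day 3 and 53.4 ± 12.9 at day 14, and was called at no day in FPKM, while in TPM it was higher at day 3 (0.97, adjusted p = 0.00502). Its day 14 difference of -0.60 narrowly missed the threshold (adjusted p = 0.0504), and passed without replicate 5 of days 3 and 7 (adjusted p = 0.0158).

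The 5 DnaJ genes listed here as mitochondrial were all lower at days 3 and 7 (19.8% and 14.4% of all genes). The list was chosen with earlier results known and may leave out other mitochondrial members. In TPM 0 of the 5 were called lower at days 3, 7 or 14. Dnajc11 and Dnajc30 were above control in TPM at days 3 and 7, and Dnaja3 at day 7 (by 0.01). The median differences of the 5 in FPKM were -0.78 and -0.70 at days 3 and 7, against 0.01 and 0.03 for all tested genes. At day 14, 2 of 5 were lower, and at day 21 none was, with a median of -0.26.

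Dnajc19, a subunit of the inner membrane import motor, was 22.7, 21.7, 29.1, 18.4 and 21.8 FPKM in control and 12.97, 13.9, 9.12, 8.15 and 12.8 FPKM at day 3. Day 3 lay wholly below control (-0.95, SE 0.22, adjusted p = 0.00129). It was lower at days 7 (-0.78, adjusted p = 0.00857) and 14 (-0.68, adjusted p = 0.0253). The day 14 call was lost without control replicate 3 (0.0709), day 14 replicate 1 (0.0679) or day 14 replicate 5 (0.0508). In TPM the differences of Dnajc19 at days 3, 7 and 14 were -0.18, -0.10 and -0.23 and did not pass. By day 21 it was 14.7 to 20.9 FPKM and higher than at day 3 (0.71, adjusted p = 0.0209), a call lost without day 3 replicate 3 (0.0617) or 4 (0.076).

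Dnaja3 (TID1), the main matrix partner of Hspa9, was 29.1 to 37.8 FPKM in control and 12.5 to 18.8 FPKM at day 3, below all controls. Its differences at days 3, 7 and 14 were -0.89, -0.70 and -0.66 (adjusted p = 0.00104, 0.00986 and 0.0198). The day 14 call was lost without control replicate 1 (0.0543) or day 14 replicate 5 (0.0559). Dnajc15 (MCJ), a negative regulator of respiratory complex I, fell from 15.8 ± 1.76 to 8.87 ± 1.45 FPKM at day 3 (-0.78, adjusted p = 0.00264) and was 9.67 ± 3.27 FPKM at day 7. In TPM no difference of these 2 genes passed: Dnaja3 was at -0.10, 0.01 and -0.19 at days 3, 7 and 14. Dnajc15 was at -0.02 and -0.05 at days 3 and 7. Dnajc11, of the cristae-organising complex, and Dnajc30, an ATP synthase partner, had smaller differences at days 3 and 7 (-0.31 and -0.34, and -0.46 and -0.55). The Dnajc30 calls were lost without any of 6 samples at day 3 (0.062 to 0.15) and without control replicate 3 at day 7 (0.0759), and 26.3% of its exon bases overlap Bud23.

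**Figure D5:**
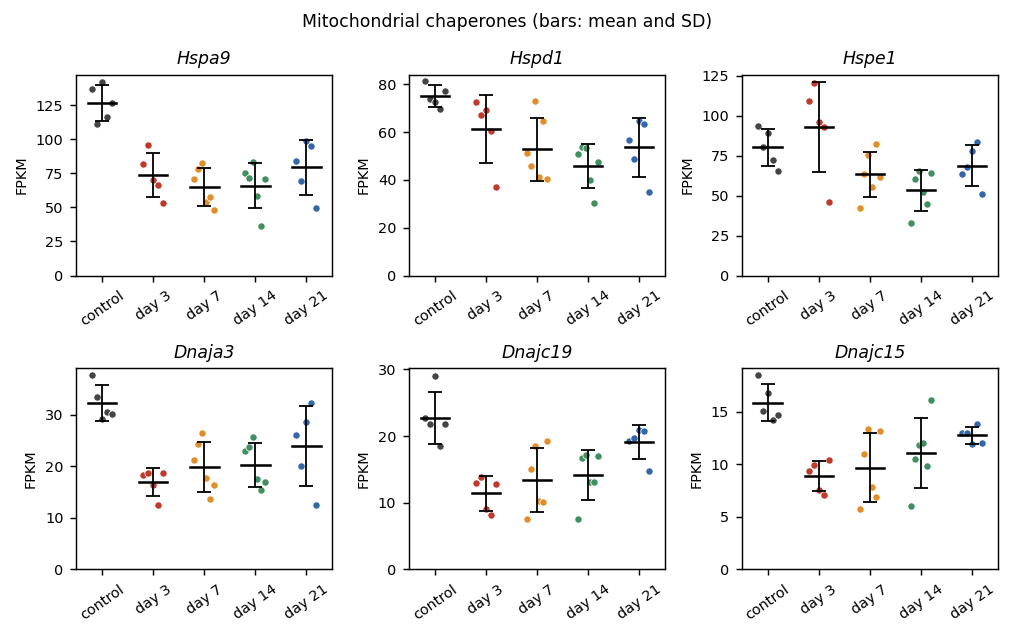
FPKM of Hspa9, Hspd1, Hspe1, Dnaja3, Dnajc19 and Dnajc15 in every sample (points) by group, with group mean and SD (bars). Hspa9 lies below the control range (111 to 142 FPKM) at every day, and Dnajc19 at day 21 (14.7 to 20.9 FPKM) lies above its day 3 samples.

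Of 10 other genes of mitochondrial protein quality control, 4 were lower at each of days 3, 7 and 14 (19.8%, 14.4% and 11.3% of all genes). At day 21, 0 were lower (1.69%). In TPM 1, 3 and 1 of those 4 were above control at days 3, 7 and 14. They were the same genes at each day: the matrix proteases Lonp1 (-0.68 at day 3, adjusted p = 0.000128) and Clpx (-0.97), the disaggregase Clpb (-0.72) and the membrane protease Spg7 (-0.86). Of the mature fibre markers, 5 of 6 were lower at day 3 (1 of the 5 above control in TPM), then 4, 1 and 0 at days 7, 14 and 21. Without replicate 5 of days 3 and 7, 0 of these markers were lower at day 7. Their summed FPKM had medians of 64671 in control and 33448, 35296, 41133 and 51702 at days 3, 7, 14 and 21. Their part in the mitochondrial results was not tested.

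Of the 9 cytosolic DnaJ members, 2 were higher at days 3, 7 and 14 (Dnajb1 and Dnaja1, above), 3 were lower at day 3 (19.8% of all genes) and 2 at day 7 (14.4%). In TPM the lower genes Dnaja2 and Dnajc7 were above control at day 3 (0.16 and 0.35), and Dnajc7 at day 7 (0.31). Dnajb5, which in muscle carries class II histone deacetylases, was 29.2, 30.8, 22.9, 26.2 and 29.4 FPKM in control. At day 3 it was 13.6, 16.1, 9.70, 8.19 and 12.5 FPKM, wholly below control (-1.17, SE 0.23, adjusted p = 0.000244). At day 7 it ranged widely, from 9.01 to 33.1 FPKM (-0.71, adjusted p = 0.0176). That call was lost without day 7 replicate 5 (0.0553) and without replicate 5 of days 3 and 7 (-0.55, adjusted p = 0.0583). From day 3 to day 21 it increased by 0.79 (adjusted p = 0.0128), lost without day 3 replicate 4 (0.053). In TPM these Dnajb5 differences were -0.39 at day 3, -0.02 at day 7 and 0.20 from day 3 to day 21, and none passed. Dnaja2, the most abundant of this group, was 59.0 ± 5.39 FPKM in control and 37.2 ± 1.98 FPKM at day 3 (-0.65, adjusted p = 0.00113). Dnajb6, which suppresses aggregation in the Z-disc, ran from 5.79 to 8.89 FPKM in control and 5.02 to 9.02 FPKM at day 3 (0.01, adjusted p = 0.975).

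Several DnaJ genes with narrower functions had some of the deepest decreases, with all but Dnajc12 at day 3 below control in TPM too. Dnajc27, a small GTPase with a J domain, was 16.9, 15.8, 14.2, 13.1 and 20.7 FPKM in control and 7.29, 9.59, 5.99, 4.17 and 3.85 FPKM at day 3. Its samples at days 3, 7 and 14 were all below control. The differences were -1.30, -1.05 and -1.13 (adjusted p = 0.000103, 0.00154 and 0.00164), and -0.56, -0.39 and -0.69 in TPM, where they did not pass.

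Dnajc28 was 7.51 ± 1.61 FPKM in control, 2.66 ± 0.885 at day 3 and 3.47 ± 1.44 at day 14 (-1.23, -0.98 and -0.98 at the 3 days; adjusted p = 0.000349, 0.00409 and 0.00645). Dnajc21, which takes part in ribosome assembly, was 21.0 ± 1.93 FPKM in control, 9.61 ± 2.75 at day 3 and 11.6 ± 2.80 at day 21. Its differences at days 3, 7 and 14 were -1.09, -0.91 and -1.10 (adjusted p = 0.00122, 0.00699 and 0.00321). Dnajc12, a co-chaperone of aromatic amino acid hydroxylases, was lower by smaller steps at the same days (-0.53, -0.63 and -0.53). In TPM these 3 genes remained below control without passing, except Dnajc12 at day 3 (0.09).

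Dnajb3 was the exception among the rarer genes. It was listed at 0 in 3 of 5 control samples and at 0.0714 and 0.487 FPKM in the others. At day 3 it was 0.775, 1.45, 1.37, 0.877 and 2.37 FPKM, above all controls, on at most 53 reads in any sample. As stated above, the threshold could admit it only through injured samples, so no test of it is given. The 2 vesicle members, Dnajc5 and Dnajc13, and 4 of 5 nuclear and ribosomal members were called at no day.

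Co-chaperones and regulators outside the families were mostly lower or not called. Of 23 HSP70 and HSP90 co-chaperones, 0 were higher and 8, 8 and 9 were lower at days 3, 7 and 14 (19.8%, 14.4% and 11.3% of all genes), of which 6, 7 and 2 were above control in TPM. The lowest difference at day 3 was that of Unc45b, the myosin co-chaperone of HSP90 in muscle (-0.82, adjusted p = 2.65e-05), followed by Cdc37l1 (-0.77), Bag1 (-0.63) and the mitochondrial HSP90 Trap1 (-0.63). At day 21 Fkbp5, an HSP90 partner in steroid receptor complexes, was the 1 lower gene (-0.60, adjusted p = 0.0178). Among the 8 subunits of the cytosolic chaperonin TRiC, Cct3 was higher at day 3 (0.56, adjusted p = 0.0279), and in TPM all 8 were. Hsf1, the heat shock factor, was lower at day 3 (-0.36, adjusted p = 0.0204), and above control in TPM.

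By day 21 no member differed from control at the threshold, where 3.43% of all genes did. At an unadjusted p under 0.05, 12 members differed, 3 higher (Dnaja1, Hspb3 and Hspb8; 9.23% of all genes) and 9 lower (10.6%). Voom weights on the recovered reads gave 0 calls, a fit of only those 2 groups gave 1 higher and 3 lower, and leaving out day 14 replicate 5 gave 2 lower. Shares of all tested genes are not given for these fits, so their counts do not set the members apart. The 9 lower at an unadjusted p under 0.05 were Hspa9, Dnajc21 (-0.83, adjusted p = 0.0651), Dnajc28 (-0.75, adjusted p = 0.0912), Dnajc27, Dnajc12, Hspd1, Dnaja2, Dnaja3 and Dnajb12. All day 21 samples lay below all controls for 6 members (Hspa9, Hspd1, Dnajc12, Dnajc15, Dnajc21 and Hspa13), where 5.13% of all genes did. The corresponding counts below control were 12 at day 3 (16.5% of genes), 7 at day 7 (5.37%) and 9 at day 14 (8.05%). Those above control were 7 (19.8%), 2 (7.25%), 2 (7.67%) and 1 (5.26%). The 7 at day 3 include Dnajb3, which is given no test.

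Set directly against day 3, day 21 was higher for 5 members (9.23% of all genes) and lower for 10 (16.2%), with 25.5% of all genes called in either direction. The 10 lower members were Hsp90aa1, Hsp90b1, Hspa5, Dnajb11, Dnajc3, Dnajc10, Dnaja1, Dnajb3, Hspb1 and Hspb11, by -1.39 to -0.33. Of these 10, 5 are ER chaperones, and 9 were over the threshold in at least 1 control sample (all but Dnajb3). The 5 higher members were Dnajb5, Dnajc19, Dnajc27, Hspb3 and Dnajc4, by 0.51 to 0.79. In TPM none of the 5 passed while 29 members, Dnajb3 included, were lower (33.1% of all genes). Without day 3 replicate 4 none of the 5 passed in FPKM either, and Dnajc27 also lost its call without any of 4 other samples (0.055 to 0.0817). The calls of Dnajc10, Hspb3, Dnaja1 and Dnajc4 were near the threshold (adjusted p = 0.0446 to 0.0481) and were lost without any of 18, 18, 10 and 9 samples (0.0502 to 0.141). Without replicate 5 of days 3 and 7, 6 members were higher (11.4% of all genes) and 16 lower (18.5%).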

How the data were processed

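Bulk polyA RNA of 27 tibialis anterior samples had been sequenced with a library kit that does not mark strand, so reads of overlapping genes cannot be told apart. Per the submitters' processing notes, the authors used HISAT2 2.0.5 and featureCounts 1.5.0-p3, and the genome build is not given in the sources used here. Gene coordinates were the same as in GENCODE M21 (GRCm38) for 63 of the 66 members. The deposited values are FPKM, whose recovered divisor differed from the read total to a different degree in each group. How the divisor was set is not stated in the sources used here. Whole reads were recovered from the deposited FPKM and gene lengths for 100% of values (tolerance 0.1 read), and gave 14376395 to 24436763 reads per sample.

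Differences were tested two-sided with limma 3.58.1 (R 4.3.3) with an intensity trend on log2(FPKM + 1) over all 27 samples and the 14630 genes at 0.5 FPKM or more in at least 5 samples. Benjamini-Hochberg adjustment ran over all of these genes, with a threshold of 0.05. Scripts ran in Python 3.11.15 and were tested on simulated data. Alternatives were a pseudocount of 0.1, no filter on low values, a minimum of 1 FPKM, TPM, median-ratio scaling, no trend, voom weights on recovered reads, only the 2 groups compared, replicate blocks, and samples left out. Columns of the table without a sample numbered 0.

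Genes were named by role: all heat shock proteins, the ER, mitochondrial and cytosolic DnaJ genes, the 10 largest called changes in each direction, and members near the threshold. Members, lists and this rule were chosen with earlier results of these data known.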

Additional observations from a re-analysis of the deposited data

Results flagged for a closer look

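Among 155 groups of member values tested for a sample far from the others, 15 held one, and chance gives about 1 in 20 groups. Day 7 replicate 5 was the highest of its group for Hsp90aa1 (33.7 FPKM), Hsp90b1 (49.1) and Hspa5 (82.9), and day 7 replicate 2 for Cryab (1260) and Hspb6 (940). Day 3 replicate 5 was the lowest for Hsp90ab1 and Hspa8 (258 FPKM each). Day 21 replicate 5 was the lowest for Hspa4 (8.75 FPKM), Dnajb11 (8.47) and Dnajc19 (14.7), whereas day 21 replicate 1 was the highest for Dnajc8 (26.1) and replicate 3 for Hspb2 (80.6). In control, replicate 3 was the lowest for Dnajc21 (17.5 FPKM) and the highest for Dnajb3 (0.487), and replicate 1 was the highest for Hspb1 (321).

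For 15 members, counting Dnajb3, the difference from control was not the same at day 21 as at day 3 (limma, adjusted p under 0.05), as for 25.5% of all tested genes. Among the 64 members over the threshold in at least 1 control sample, 5 were higher and 9 lower. As log2 differences, day 21 minus day 3, the values were -1.39 for Hsp90aa1, -0.97 for Hsp90b1, -0.92 for Dnajb3, -0.88 for Hspb11, -0.88 for Hspb1, -0.79 for Hspa5, -0.60 for Dnajc3, -0.57 for Dnajb11, -0.34 for Dnajc10 and -0.33 for Dnaja1. They were 0.51 for Dnajc4, 0.69 for Hspb3, 0.70 for Dnajc27, 0.71 for Dnajc19 and 0.79 for Dnajb5. In TPM none of these 5 increases passed, and that of Dnajc4 turned (-0.098). Dnajb3 entered the set only through injured samples, so its value is no test.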

How the results depend on the processing

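Scaling to TPM moved the results most, whereas median-ratio scaling moved them little. The median over the members was -0.013, -0.081, -0.081 and -0.132 at days 3, 7, 14 and 21 in FPKM. With median-ratio scaling it was -0.008, -0.074, -0.073 and -0.128. In TPM, 37 members were higher and 0 lower at day 3 (46.9% of all genes higher), 18 and 0 at day 7 (43.1%), 8 and 0 at day 14 (11.5%), and 0 and 29 at day 21 against day 3 (33.1% lower). Dnajb3 is counted at each of these. The direction turned in TPM for Dnaja2 (0.16), Dnajb12 (0.28), Dnajb9 (0.17), Dnajc11 (0.38), Dnajc12 (0.092), Dnajc30 (0.30), Dnajc7 (0.35) and Hspa9 (0.020) at day 3. At day 7 it turned for Dnaja3 (0.0053), Dnajb9 (0.16), Dnajc11 (0.26), Dnajc30 (0.12), Dnajc7 (0.31), Hspa8 (0.27) and Hspd1 (0.18), and at day 21 against day 3 for Dnajc4 (-0.098). TPM moved the median of all genes too, and the cause was not tested further. At day 21 against control, a fit of only the 2 groups called 1 member higher and 3 lower. At day 21 against day 3, no filter on low values gave 2 higher, and leaving out replicate 5 of days 3 and 7 gave 16 lower (18.5% of all genes). Shares of all tested genes are not given for the fit of only the 2 groups or for that without a filter.

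Samples with the same replicate number or letter deviated together by a mean r of 0.0217 and 0.0296, against -0.00334 and -0.00474 for other pairs. Single pairs ran from -0.521 to 0.566, over 0.1 in 15 of 51 and 15 of 49 pairs. The means show little pairing on average, and they cannot tell whether some samples shared handling. With a block for the number, 3 members were lower at day 21, and with a block for the letter 1 was higher and 4 lower, while 3 were higher at day 21 against day 3. Shares of all tested genes are not given for the block fits, so these counts do not set the members apart.

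Leaving out 1 sample at a time gave 9 to 14 members higher and 14 to 16 lower at day 3, 3 to 4 and 13 to 17 at day 7, 3 to 6 and 6 to 13 at day 14, and 0 to 0 and 0 to 2 at day 21. Day 21 against day 3 gave 0 to 7 higher and 7 to 16 lower. Dnajb3, which is given no test, is counted as higher at days 3, 7 and 14 and as lower at day 21 against day 3. Shares of all tested genes are not given for these fits, so the ranges do not set the members apart. The ends were reached without day 3 replicate 5 (14 higher at day 3, 16 lower at day 21 against day 3), day 14 replicate 5 (3 higher and 6 lower at day 14, 2 lower at day 21), day 7 replicate 3 (13 lower at day 14), day 3 replicate 3 (7 lower) and day 3 replicate 4 (0 higher), the last pair at day 21 against day 3. Of single-gene values under all alternatives, 2747 kept direction and side of the threshold, 230 no longer passed, 9 newly passed and 16 turned, all 16 in TPM.

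Members near 0.5 FPKM rest on few reads, at most 20 for Hspb9 and 53 for Dnajb3, so differences there were not detectable unless large. Hspa1a and Hspa1b are near-identical copies, and 71.9% of Hspa1l and 30.2% of Hspb2 exon bases overlap other genes. Bulk RNA does not separate cell numbers from RNA per cell.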
